A study of Mus musculus with 6 samples.

Results

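The imprinted growth genes described here in mouse Achilles tendon, with the miRNA loci inside them, are 10 of the 54189 features of the RNA-seq table and the 2265 features of the small RNA-seq table, namely the 7 long genes H19, Igf2, Mest, Grb10, Plagl1, Cdkn1c and Peg3 and the 3 miRNA loci Mir675, Mir483 and Mir335. All 10 were found, the long genes in RNA-seq and the miRNA loci in small RNA-seq. These members were chosen by the high Dicer cKO values of H19, Mir335 and Mir483, so every comparison with the Dicer cKO libraries is given as a description.

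Whole Achilles tendons of mice at 4 weeks of age were used. The Control carried floxed Dicer alleles (Dicer f/f) and no Cre. ScxHt carried ScxCre/+ with both Dicer alleles intact (Dicer +/+). Dicer cKO carried ScxCre/+ with Dicer f/f. Cre was knocked into the Scx locus, so that 1 Scx allele was lost in both ScxHt and Dicer cKO and recombination was driven by the promoter of Scx, the transcription factor of tendon and ligament cells. Whole tissue also holds cells in which this promoter is not known to be active. Each genotype had 1 RNA-seq and 1 small RNA-seq library, 6 in all, and according to the labels both came from the same tendon sample. No test across mice was therefore possible, and each interval below is a 95% Clopper-Pearson or Poisson interval that covers counting error only, not the difference between mice. Where 3 values are given without names, they are in the order Control, ScxHt and Dicer cKO.

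An imprinted gene is transcribed mainly from the allele of 1 parent. Many imprinted genes act on fetal and postnatal growth, and several of them are abundant in the embryo and decline after birth. Paternally expressed genes such as Igf2 often promote growth, and maternally expressed genes such as H19, Grb10 and Cdkn1c often restrain it. H19, a long noncoding RNA, and Igf2, a secreted growth factor, share enhancers and an imprinting control region, and H19 stays transcribed in skeletal muscle after birth. The hairpins of miRNAs are cut by Drosha in the nucleus and by Dicer in the cytoplasm, and the released strand pairs with mRNAs through its seed, bases 2 to 8.

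The 3 miRNA loci lie within 3 of the long genes. On GRCm38 with GENCODE vM21, H19 lies at chr7:142575529-142578143 on the minus strand, and the Mir675 hairpin at chr7:142577064-142577147 is in an exon of 3 of its 7 annotated transcripts and in an intron of 1. Igf2 lies at chr7:142650766-142666816 on the minus strand, 72.6 kb from H19, and the Mir483 hairpin at chr7:142654924-142654996 is in an intron of 7 of its 9 transcripts. Mest, which encodes a hydrolase-like membrane protein, lies at chr6:30723547-30748465 on the plus strand, and the Mir335 hairpin at chr6:30741299-30741396 is in an intron of 7 of its 11 transcripts. Cdkn1c, at chr7:143458339-143461050 on the minus strand, is 792 kb from Igf2. The others are Peg3 at chr7:6703892-6730431 (minus), Grb10 at chr11:11930508-12038683 (minus) and Plagl1 at chr10:13060504-13131694 (plus). Igf2, Mest, Cdkn1c, H19 and Plagl1 overlap annotated genes on the opposite strand. The strand setting of the counting is not given in the sources used here, so their counts may hold reads of those genes.

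**Figure D1:**
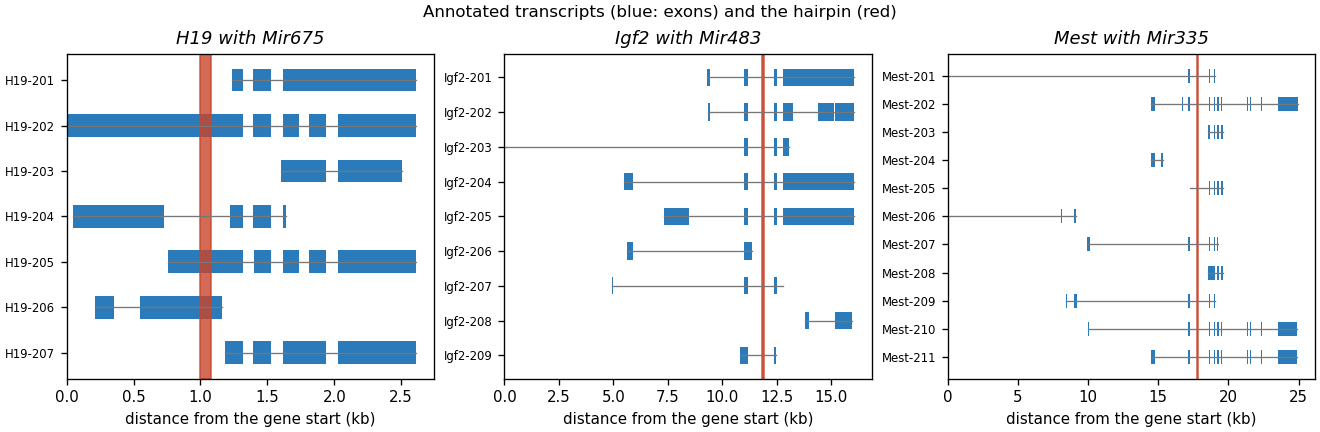
Annotated transcripts of H19, Igf2 and Mest (1 row each, exons in blue) along the distance from the start of the gene in kb, with the hairpin of the miRNA locus in red. The Mir675 hairpin crosses exons of 3 H19 transcripts, while the Mir483 and Mir335 hairpins lie in introns of 7 Igf2 and 7 Mest transcripts.

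The mature sequences of all 3 loci, from RefSeq on GRCm38.p6, are shown because each locus is counted as a whole and either strand may give the reads. They are written 5′ to 3′, with the seed in capitals.
mmu-miR-675-5p: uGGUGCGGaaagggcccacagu
mmu-miR-675-3p: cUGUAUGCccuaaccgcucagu
mmu-miR-483-5p: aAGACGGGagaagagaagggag
mmu-miR-483-3p: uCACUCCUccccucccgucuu
mmu-miR-335-5p: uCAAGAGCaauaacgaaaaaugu
mmu-miR-335-3p: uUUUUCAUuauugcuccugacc
No other of the 1738 mature miRNAs in the RefSeq table has any of these 6 seeds, so each of the 6 stands alone by its seed. The locus counts do not separate the 5p and 3p strands.

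The libraries held 14959399 to 16244232 counts in RNA-seq and 8435829 to 10986541 in small RNA-seq. Dicer1, the targeted gene, had 1919, 2025 and 1621 counts, and the Dicer cKO/Control ratio was 0.877 (0.821 to 0.938). All 12 tendon markers had reads in every library, but the tissue also held other cells. Counts of 15 skeletal muscle genes summed to 63045, 36026 and 109645 CPM (counts scaled to the total of the library). Those of the 12 tendon genes summed to 136374, 119938 and 78384. Gene by gene, 8 of the 12 tendon genes had ScxHt/Control ratios above 1 and 4 below, with a median log2 ratio of 0.25. The lower sum in ScxHt was thus not shared by most of them. In whole tissue, fewer cells of a type and less RNA per cell cannot be told apart.

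The members differed widely in level within each library. Per length, as RPKM, H19 was the highest of the 7 long genes at 300, 164 and 636. Peg3, a zinc finger protein gene, followed at 27.1, 30.5 and 33.1, and then Grb10, an adaptor protein that dampens insulin and IGF1 receptor signaling, at 23.8, 29.5 and 28.8. The counting intervals of Peg3 and Grb10 overlapped in the ScxHt library (29.8 to 31.3 against 28.6 to 30.4) and not in the other libraries. Cdkn1c, an inhibitor of cyclin-dependent kinases, was the fourth in every library at 13.3, 12.6 and 17.9. Igf2 (7.57, 7.08 and 13.01), Plagl1 (5.52, 8.41 and 5.88), a zinc finger transcription factor, and Mest (3.76, 4.74 and 6.44) were the lowest, and their order changed from library to library. The intervals of Mest (5.81 to 7.12) and Plagl1 (5.45 to 6.34) overlapped in the Dicer cKO library.

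**Figure D2:**
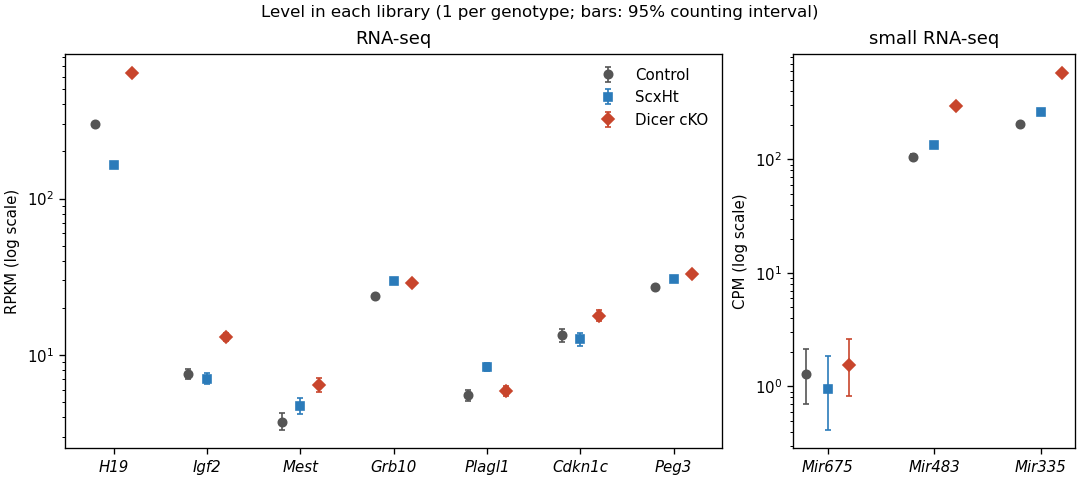
Level of each member in the Control, ScxHt and Dicer cKO library, as RPKM in RNA-seq and as CPM in small RNA-seq, both on log axes, with 95% Poisson counting intervals as bars. H19 was between 164 and 636 RPKM and the other 6 long genes were below 34 RPKM, and Mir675 was below 2 CPM in all 3 libraries.

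The first comparison, Dicer cKO/Control, describes the members with Dicer deletion and the ScxCre knock-in together, as Control carries no Cre. The parts of the deletion and of the knock-in cannot be told apart within this pair. A feature was called lower below a ratio of 0.60 and higher above its inverse (1/0.60, rounded to 1.67 in the text), with a mean normalized count (baseMean) above 50 (RNA-seq) or 15 (small RNA-seq). Of the 7 long members, 1 was called higher (H19) and 0 lower, where 3.92% of all 13404 genes tested were higher and 4.19% lower. Both miRNA loci above the minimum, Mir483 and Mir335, were called higher, where 8.38% of 334 small RNA features were. The median log2 ratio of the 7 long members was 0.36, compared with -0.03 over all genes.

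H19 had 11990 counts in Control, 6343 in ScxHt and 23386 in Dicer cKO. Its normalized count was 2.03 times the Control in Dicer cKO (1.98 to 2.07) and 4.06 times the ScxHt level (3.95 to 4.18). The Dicer cKO library was the highest and the ScxHt library the lowest, and the intervals of all 3 levels were apart. In Dicer cKO/Control, H19 ranked 204 of 13404 genes from the highest ratio.

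Igf2 had 704 counts in Control, 639 in ScxHt and 1113 in Dicer cKO. The ratio was 1.64 (1.49 to 1.81) against Control, just below the threshold of 1.67, and 1.92 (1.74 to 2.12) against ScxHt. In RPKM the counting intervals of Control and ScxHt overlapped, and that of Dicer cKO lay above both. The ScxHt/Control ratio was 0.869 (0.780 to 0.969).

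Mest had 241, 295 and 380 counts in the Control, ScxHt and Dicer cKO libraries. Its Dicer cKO/Control ratio of 1.64 (1.39 to 1.93) was also just below it, and Dicer cKO/ScxHt was 1.42 (1.22 to 1.66). The calls of Igf2 and Mest depended on the scaling. With edgeR TMM scaling 2 of the 7 long members were called higher, as Igf2 came to 1.668 and so just passed the unrounded threshold while Mest at 1.664 did not. With total counts 3 were, with Igf2 at 1.72 and Mest at 1.71.

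The 4 remaining long genes were within the thresholds in Dicer cKO/Control. Cdkn1c had 442, 405 and 545 counts and a ratio of 1.28 (1.13 to 1.45). Peg3 had 5859, 6408 and 6598 counts and a ratio of 1.17 (1.13 to 1.21). Grb10 had 3508, 4232 and 3910 counts and a ratio of 1.16 (1.11 to 1.21). Plagl1 had 701, 1036 and 688 counts and a ratio of 1.02 (0.916 to 1.13), the only interval of the 7 that held 1. The intervals of the other 6 lay above 1, as did those of 21.6% of all genes.

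Mir335 had 2262 counts in Control, 2203 in ScxHt and 4847 in Dicer cKO. This was a ratio of 2.46 (2.34 to 2.58) against Control and of 2.20 (2.09 to 2.31) against ScxHt. Mir483 had 1149, 1133 and 2477 counts, with ratios of 2.47 (2.30 to 2.65) and 2.19 (2.04 to 2.35). For both loci the Dicer cKO library was high. ScxHt and Control differed less, with ScxHt/Control ratios of 1.10 for Mir335 and 1.11 for Mir483. With total counts these were 1.27 and 1.28. In Dicer cKO/Control, Mir483 ranked 7 and Mir335 ranked 9 of 334 features. Scaling by total counts moved the log2 ratio of all small RNA features by 0.18, and over the scalings tried the ratio lay between 2.46 and 2.79 for Mir335 and between 2.47 and 2.81 for Mir483.

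Mir675 had 14, 8 and 13 counts and was below the minimum in all comparisons. The Dicer cKO/Control ratio was 1.06 (0.461 to 2.44). This interval holds both 1 and the H19 ratio, so a difference of the size seen for H19 was not excluded at this depth. In RNA-seq the same hairpin is a row of its own with 977, 506 and 1966 counts. Relative to H19 these were 8.15, 7.98 and 8.41 counts per 100 H19 counts. They cannot be told apart from reads of the H19 exons that contain the hairpin, and are not a measure of the mature miRNA. The RNA-seq rows of Mir335 (5, 17 and 17 counts) and Mir483 (0 in all 3 libraries) held few reads.

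**Figure D3:**
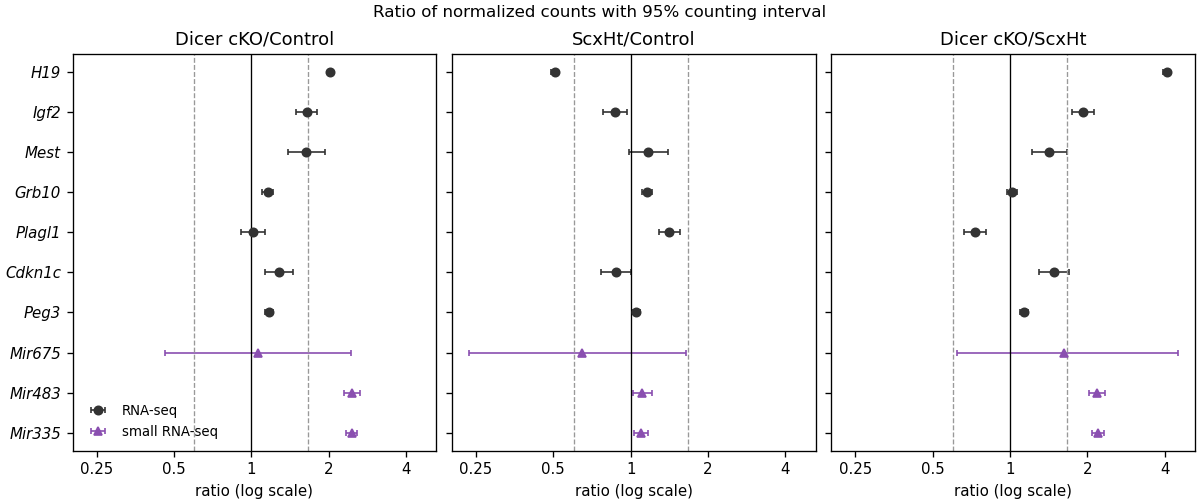
Ratio of normalized counts (log axis) of each member in the 3 comparisons, with 95% counting intervals as bars, circles for RNA-seq and triangles for small RNA-seq. Dashed lines mark 0.60 and 1.67. H19, Mir483 and Mir335 lie past 1.67 in Dicer cKO/Control, and H19 alone lies past 0.60 in ScxHt/Control.

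ScxHt/Control holds no Dicer cKO library, and Dicer was deleted in neither genotype. The genotypes differ in the ScxCre knock-in and also in the floxed Dicer alleles, which only Control carries here. These parts cannot be told apart within this pair. The members were chosen with these data known, so this comparison is not independent of the choice either. H19 was called lower at 0.507 (0.491 to 0.522), 1 of the 7 long members, where 4.71% of 13462 genes were lower and 3.04% higher. Its rank was 13155 of 13462 from the highest ratio. The other 6 long members were within the thresholds. Igf2 was 0.869 (0.780 to 0.969) and Cdkn1c 0.878 (0.765 to 1.01). Plagl1 was 1.42 (1.28 to 1.56), Mest 1.17 (0.986 to 1.40), Grb10 1.16 (1.10 to 1.21) and Peg3 1.05 (1.01 to 1.09). The intervals of 3 members lay above 1 and those of 2 below 1, compared with 26.4% and 23.8% of all genes. Mir335 (1.10, 1.03 to 1.16) and Mir483 (1.11, 1.02 to 1.21) were within the thresholds, as 3.01% of 332 small RNA features were higher and 6.93% lower. H19 was the only tested member past a threshold in this comparison.

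In Dicer cKO/ScxHt, where both genotypes carry ScxCre, H19 and Igf2 were called higher, 2 of the 7 long members, where 7.68% of 13455 genes were higher and 5.68% lower. Mir483 and Mir335 were both called higher, where 11.2% of 322 features were higher and 2.17% lower. Cdkn1c was 1.48 (1.30 to 1.69), Peg3 1.13 (1.10 to 1.17) and Grb10 1.02 (0.975 to 1.06), which ran from 0.974 to 1.03 over the scalings. The intervals of 5 long members lay above 1, as did those of 24.9% of all genes. Plagl1 was the only member with its interval below 1, at 0.732 (0.664 to 0.807), as 30.6% of all genes had. The 3 comparisons share libraries, so they are not independent of each other.

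The host genes and their miRNAs did not have the same ratios. In Dicer cKO/Control, the interval of Mir483 (2.30 to 2.65) lay above that of Igf2 (1.49 to 1.81), and the interval of Mir335 (2.34 to 2.58) lay above that of Mest (1.39 to 1.93). The assays were scaled separately, so a ratio of RNA-seq and a ratio of small RNA-seq are each relative to the median feature of their own table. Mir335, from chromosome 6, and Mir483, from chromosome 7, differed little in both ratios. Among 269 small RNA features with a mean normalized count of at least 50, Mir483 was the nearest to Mir335 by the distance between their pairs of log2 ratios to Control (0.02), followed by Mir19a (0.23) and Mir338 (0.24). Mir335 and Mir483 were both chosen by high Dicer cKO values, which enter the Dicer cKO/Control ratio. Their closeness, and their ratios above those of Igf2 and Mest, therefore follow in part from the choice and are descriptions only. These distances rest on 3 libraries.

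By the same measure over 8413 RNA-seq features with a mean of at least 200, the nearest to H19 were the Mir675 row, which shares its reads, RP24-66N1.1 and Padi2. The nearest to Igf2 were RP23-209O22.2, Fras1 and Klhl33, and the nearest to Mest were Myl9, Cpt2 and Retn.

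Skeletal muscle markers also differed between the libraries. All 15 muscle genes were above 1 in Dicer cKO/Control, 11 of them past 1.67, with a median log2 ratio of 0.97. In ScxHt/Control 3 were higher and 5 lower, with a median of -0.27. The 8 muscle miRNA loci, some of which give the same mature miRNA and share reads, gave medians of 0.75 and -0.64, and their summed level was 63438, 43820 and 118637 CPM. The order of the libraries, ScxHt lowest and Dicer cKO highest, was also that of H19, Igf2 and Cdkn1c. It was not that of Mest, Grb10, Plagl1, Peg3, Mir335 and Mir483, whose ScxHt/Control ratios were above 1. The part of muscle in the values of the members was not tested. No muscle gene of the list was at 0 in any library.

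Counted per 100000 counts of the 15 muscle genes, H19 was 1173 in Control, 1118 in ScxHt and 1428 in Dicer cKO. Its Dicer cKO/Control ratio on this scale was 1.22 and its ScxHt/Control ratio 0.954. Igf2 (68.9, 113 and 68.0) and Mest (23.6, 52.0 and 23.2) were close in Control and Dicer cKO and highest in ScxHt. Grb10, Plagl1, Cdkn1c and Peg3 were also highest in ScxHt on this scale. Their Dicer cKO/Control ratios on it were 0.696, 0.613, 0.770 and 0.703. Ttn and Neb, the giant sarcomere proteins, made up 68.0 to 77.7% of the list's counts. Without them H19 was 5251, 3500 and 5706, a Dicer cKO/Control ratio of 1.09 and a ScxHt/Control ratio of 0.667. The Dicer cKO/Control ratios of Igf2 and Mest were then 0.881 and 0.878. The muscle list itself was uneven in ScxHt, as Myh4, a fast myosin, had 8125, 39836 and 49811 counts. Per 100000 counts of the muscle miRNA loci, Mir335 was 325, 596 and 484 and Mir483 was 165, 306 and 248.

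**Figure D4:**
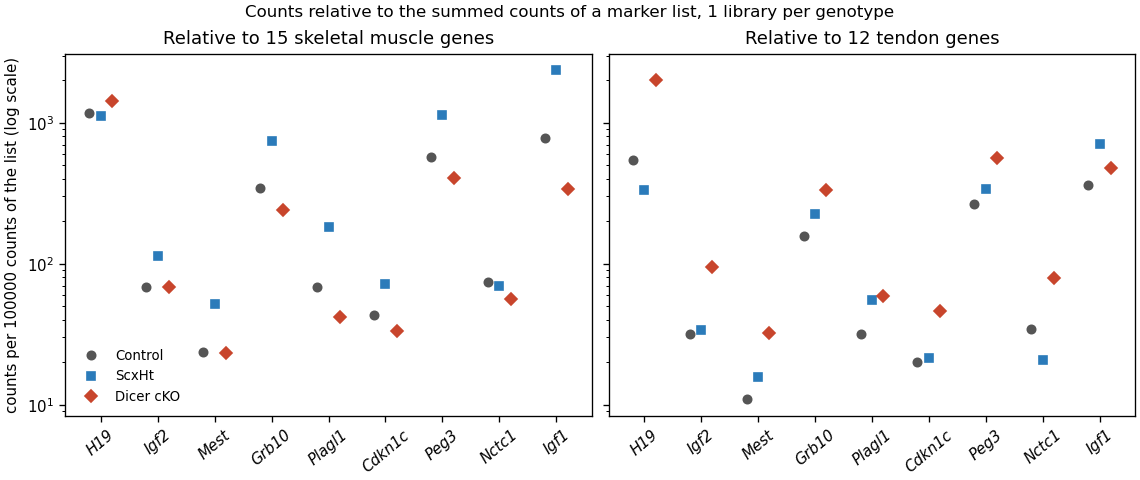
Counts of the 7 long members and of Nctc1 and Igf1 per 100000 counts of the skeletal muscle list (left) and of the tendon list (right), on a log axis, 1 point per library. Relative to the muscle list H19 was between 1118 and 1428 in the 3 libraries, and relative to the tendon list it was 542, 336 and 1998.

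Markers of other cells also moved. Schwann cell genes (10 listed) summed to 240, 315 and 732 CPM, developing muscle genes (9 of 10 in the table) to 346, 325 and 697, and proliferation genes (8) to 153, 296 and 308. The 8 endothelial genes summed to 682, 503 and 794, the 8 adipocyte genes to 1024, 1227 and 1097, the 8 macrophage genes to 230, 429 and 181, and the 8 cartilage and bone genes, with Bglap at 0 in all libraries, to 552, 724 and 304. All 12 tendon genes were below 1 in Dicer cKO/Control, 7 of them called lower. The part of these cell types in the values of the members was not tested.

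The neighbours of the members gave values on both sides of 1. Nctc1, a noncoding RNA 16.9 kb from H19 that is known from muscle, had 758, 392 and 921 counts, with ratios of 1.26 in Dicer cKO/Control and 0.495 in ScxHt/Control. Tnnt3, a fast troponin in the same region, had 8264, 7779 and 15962 counts and ratios of 2.01 and 0.902. Near Mest, Copg2 was 1.15 and Cep41 0.807 in Dicer cKO/Control. Kcnq1ot1, the noncoding RNA of the Cdkn1c domain, was 0.967 with 7872 to 8456 counts, and Phlda2 and Ins2 were at 0 in all libraries. Of 21 neighbours in the table, 11 were above the minimum in Dicer cKO/Control, 2 were higher (Tnnt3 and Zim1) and 0 lower. Over all genes tested, 3.92% were higher and 4.19% lower.

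Other imprinted genes had ratios on both sides of 1. Of 61 listed, 58 were in the table and 35 above the minimum in Dicer cKO/Control. Of the 35, 3 were higher and 1 lower, beside 3.92% and 4.19% of all genes tested. Their median log2 ratio was -0.05. The 14 genes listed as paternally expressed had a median of -0.19 and the 21 listed as maternally expressed of 0.07. Expression by parental allele was not measured here, so imprinting of the listed genes in tendon is not shown. Zim1, a zinc finger gene beside Peg3, had 213, 306 and 396 counts (1.93). Gatm, an enzyme of creatine synthesis, had 61, 67 and 110 counts (1.87), and Asb4 had 52, 24 and 91 (1.82). Nnat, neuronatin, was the only one called lower, with 875, 947 and 423 counts (0.502). In ScxHt/Control 1 of 33 was higher (Tssc4, 2.05) and 2 lower (Zdbf2, 0.426, and Nctc1), with a median of -0.06. Over all genes 3.04% were higher and 4.71% lower. In Dicer cKO/ScxHt 5 of 34 were higher and 3 lower, beside 7.68% and 5.68% of all genes.

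**Figure D5:**
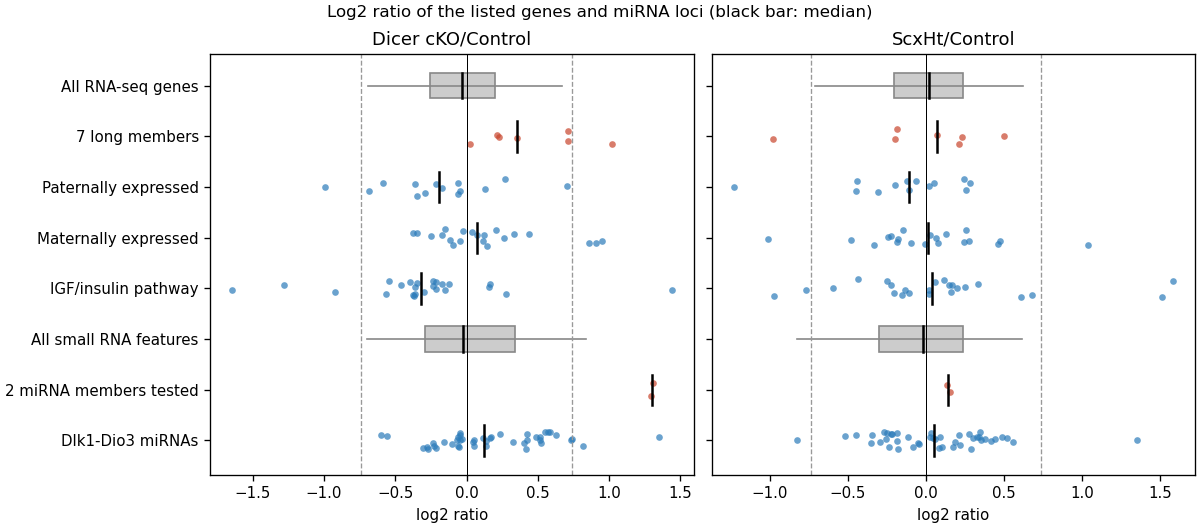
Log2 ratio of the members and of the gene and miRNA lists (1 point per gene or locus, black bar for the median) beside all features tested (box for the quartiles, line from the 5th to the 95th percentile), in Dicer cKO/Control and ScxHt/Control. Dashed lines mark ratios of 0.60 and 1.67. In Dicer cKO/Control the 7 long members have a median of 0.36 and the IGF and insulin pathway of -0.32.

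Igf2 acts through Igf1r and is bound by IGF-binding proteins, and Grb10 acts on the receptors from within. Of 30 genes listed for the IGF and insulin pathway, 24 were above the minimum in Dicer cKO/Control. Of the 24, 1 was higher and 3 lower, beside 3.92% and 4.19% of all genes, with a median log2 ratio of -0.32. The intervals of 18 lay below 1 and of 2 above 1, where 28.5% of all genes lay below and 21.6% above. Among the binding proteins, Igfbp2 was higher (49, 153 and 128 counts, 2.71), and Igfbp5 (18802, 19915 and 7465 counts, 0.412) and Igfbp6 (2442, 3212 and 1244, 0.529) were lower. Stc1, a stanniocalcin that inhibits the protease PAPPA, was lower with 81, 43 and 25 counts (0.320). The ligand Igf1 had 7984, 13344 and 5579 counts, 0.726 against Control, opposite in direction to Igf2. In ScxHt/Control 2 were higher (Igfbp2, 2.99, and Pappa2, 2.85) and 2 lower, with a median of 0.04. Over all genes 3.04% were higher and 4.71% lower.

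Of 7 relatives of the members above the minimum, Zim1 alone was past a threshold in Dicer cKO/Control. Over all genes tested, 3.92% were higher and 4.19% lower. Cdkn1a was 0.712 and Cdkn1b 0.957, Plag1 1.32 and Plagl2 0.883, and Grb14 0.780. In the small RNA table, 44 of 50 miRNA loci of the imprinted Dlk1-Dio3 region were above the minimum. Of these 3 were higher (Mir667 at 2.55, Mir323 at 1.77 and Mir495 at 1.67) and 0 lower in Dicer cKO/Control. Over all small RNA features tested, 8.38% were higher and 4.19% lower. The median log2 ratio of the 44 loci was 0.12. In ScxHt/Control 1 was higher and 1 lower, beside 3.01% and 6.93% of all features. Of 11 other imprinted miRNA loci, Mir296 (1.23) and Mir298 (1.35) were above the minimum, and neither was called.

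Finally, the letters that pair with each seed plus an A (8mer) were searched on the transcribed strand of the longest 3′ UTR of each gene. These were CCGCACCA and GCATACAA for miR-675-5p and miR-675-3p, CCCGTCTA and AGGAGTGA for miR-483-5p and miR-483-3p, and GCTCTTGA and ATGAAAAA for miR-335-5p and miR-335-3p. None of them was found in the UTRs of the 6 members that have one. Of 10946 genes tested with a UTR in Dicer cKO/Control, 410 (3.75%) held the miR-335-5p letters, and their median log2 ratio was -0.06, compared with -0.04 over all. For miR-335-3p it was -0.05 over 833 genes (7.61%), and for miR-483-3p -0.06 over 387 genes (3.54%). The genes with letters of any of the 6 strands had longer UTRs, with medians of 2622 to 3110 bases against 1300 over all genes. A match of letters is a description and does not show binding.

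Sites in 3 genes of the IGF pathway are shown because they encode the ligand, receptor and binding protein named with Igf2. The 8mer is in capitals within 30 bases of the UTR on GRCm38, and the position is that of the capitals.
Igf1, miR-335-3p, chr10:87932628-87932635 (plus): ccccatagcatATGAAAAAaaggcgctgac
Igf1r, miR-335-3p, chr7:68233461-68233468 (plus): aaaatcagtagATGAAAAAaaattcaatgt
Igf1r, miR-335-3p, chr7:68233544-68233551 (plus): ttctttacattATGAAAAAagaaactttgt
Igfbp5, miR-483-3p, chr1:72858858-72858865 (minus): cagcttaagagAGGAGTGAgccaaggagaa
Igf1r held both of these sites. Other listed genes, Irs1, Stc1, Pappa2 and Ins1 of this pathway among them, also held such letters and are not shown. Outside this pathway, Zim1, Zdbf2, Copg2 and Ppp1r9a held such letters, with Dicer cKO/Control ratios of 1.93, 1.21, 1.15 and 1.09. Peg10 and Cdkn1b held them with ratios of 0.816 and 0.957, and Usp29, which also held them, was below the minimum. In Dicer cKO/Control, Igf1r was 0.788 with 1683, 1602 and 1277 counts, and Igf1 and Igfbp5 were as above. A link between these values and the miRNAs was not tested.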

How the data were processed

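Total RNA of Achilles tendon was analysed in 6 libraries (1 mouse per genotype). The authors trimmed adaptors, used Tophat and bowtie2 for mapping to GRCm38 and HTSeq for counting (versions, annotation and strand setting are not given in the sources used here). They deposited raw counts and RPKM values, per length of the feature and per total counts. RPKM was used only for levels between genes.

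Repeated lines in the tables were used once. For each pair of libraries, counts were scaled with DESeq2 size factors (1.42.0, R 4.3.3). Ratios and intervals were computed in Python 3.11.15 with scipy 1.17.1, without pseudocount. With 1 library per genotype no p-value was computed. The procedure was tested on simulated data with planted changes and counting error only. Differences between mice were not simulated, so that test does not cover them.

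The members and the 19 lists were chosen with earlier results of these data known. All members were named. From each list, the most extreme 4 Dicer cKO/Control ratios and the most abundant 2 could be named, together with the 3 nearest patterns. Other list genes in the text (Tssc4, Zdbf2, Pappa2, Copg2, Cep41, Nctc1, Myh4 and relatives of the members) and the counts per marker list were chosen after values were seen. Alternatives were other scalings, minimums and thresholds, a pseudocount of 1, and all lines kept.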

Additional observations from a re-analysis of the deposited data

Results flagged for a closer look

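RNA-seq rows of the hairpins were outside the main measurement of the miRNA loci and held reads. The Mir675 row had 1966 counts in Dicer cKO, 977 in Control and 506 in ScxHt, and the Mir335 row had 17 counts in the Dicer cKO library and 5 in the Control. The Mir675 hairpin lies in an exon of H19.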

How the results depend on the processing

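No paired analysis was possible because each genotype had 1 library per assay. For the same reason no library could be left out. No called result reversed under the alternatives, while the ratio of Grb10 in Dicer cKO/ScxHt, which was not called, crossed 1 (0.974 to 1.03). The count of long members called higher in Dicer cKO/Control was 2 with edgeR TMM scaling and 3 with total counts or total counts without features above 1% of a library, at the unrounded threshold of 1/0.60, which Igf2 with the first (1.668) and Mest with the last (1.668) passed only narrowly. With thresholds of 2 and 0.5, 0 long members were lower in ScxHt/Control and 1 was higher in Dicer cKO/ScxHt. The median log2 ratio of the long members in ScxHt/Control was 0.17 with total counts, which moved all genes by 0.11. For the other imprinted genes, a minimum of 10 gave 9 higher in Dicer cKO/Control, 4 higher and 4 lower in ScxHt/Control and 9 higher in Dicer cKO/ScxHt. A minimum of 200 gave 1 higher, then 0 higher and 1 lower, then 2 higher and 1 lower. No minimum gave 10 higher and 4 lower, then 5 higher and 8 lower, then 11 higher. Thresholds of 2 and 0.5 gave 0 higher and 0 lower in Dicer cKO/Control and 1 lower in Dicer cKO/ScxHt, and a whole interval past the threshold gave 0 higher in Dicer cKO/Control, 0 higher in ScxHt/Control and 1 lower in Dicer cKO/ScxHt. These follow from fewer or more genes tested or from the stricter call itself. The other 199 counts and medians kept their value within 1.5 times or within the counting interval. Intervals cover counting error only, and reads without molecular identifiers are not independent molecules.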
